A study of Mus musculus with 2 samples.

Results

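The smooth muscle cells of the mouse anterior eye segment were followed in NC-Foxc2-/- and Control mice, and they numbered 367 of 20768 cells in all. They were chosen by their transcripts: of the cells with at least 1000 unique molecular identifiers (UMIs, each standing for 1 captured transcript) and at most 8% mitochondrial UMIs, those with at least 60 UMIs of Acta2 per 10000, at least 2 UMIs of Des, fewer than 4 UMIs of Rgs5, Kcnj8 and Abcc9 together, and 0 UMIs of Ptprc and Cdh5. Acta2 encodes smooth muscle actin and Des the intermediate filament protein desmin, Rgs5, Kcnj8 and Abcc9 are marker genes of pericytes, and Ptprc and Cdh5 mark leukocytes and endothelium. The rule found 109 cells among 10399 of NC-Foxc2-/- and 258 cells among 10369 of Control. Its values chose the cells, so the levels of these genes are a description throughout.

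The series holds 1 droplet-based library for each condition, made from anterior segments pooled from 4 to 6 mice that were 4 weeks old by the labels and 3 to 4 weeks old by the protocol. NC-Foxc2-/- mice were Foxc2 flox/flox; Wnt1Cre+ on a mixed strain background, so that Foxc2 was deleted in cells with a history of the Wnt1-Cre driver, which is active in the neural crest, and mice with a moderate ocular phenotype had been taken. Control mice were Foxc2 flox/flox without Cre, of the same mixed background. The iris was removed before dissociation. The comparison asks how these cells differed when the neural crest lacked Foxc2. With 1 pooled library per condition there was no replicate and no test between conditions, and all intervals are exact 95% intervals that cover counting error only, for reads collapsed to UMIs. A gene was said to have risen or fallen when its CPM, the UMIs summed over the cells of a library and scaled to a total of 1000000, stood in a ratio of at least 2 or at most 0.5 between NC-Foxc2-/- and Control and it had at least 50 UMIs over both libraries.

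Smooth muscle cells contract when calcium, let in through membrane channels or released from stores, activates myosin light chain kinase, and they relax when myosin phosphatase removes the phosphate. Their contractile genes are driven largely by serum response factor, which binds the CArG box, together with its partner myocardin. In the anterior eye such cells form the ciliary muscle, which derives from the neural crest, is driven by muscarinic receptors and pulls on the trabecular meshwork, and they also form the walls of arterioles.

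The promoters of 4 contractile, attachment and leading genes are shown because they carry the CArG box or its relaxed form. It was searched as CC, 6 bases that are each A or T, and GG, which reads alike on both strands, and in a relaxed form in which 1 of the 6 middle bases may be G or C. The windows run from 250 bases before to 50 bases after the RefSeq transcript start, on GRCm38.p6. The box was found in the window of 488 of all 27025 genes (1.81%) and its relaxed form, which includes it, in 3050 (11.3%). Among the 14 contractile genes listed for the analysis 11 had a window, of which 2 held the strict box (Myl6 and Myl9) and 3 the relaxed form, Acta2 being the third. Of the 15 genes that set the smooth muscle cells most apart from all other cells, 11 had a window, with the relaxed form in 5 of them (Acta2, Fbxl22, Hspb6, Jph2 and Pdlim3). Below, 5′ to 3′, are the windows of Acta2 at chr19:34255324-34255623 (minus strand), Myl9, the regulatory light chain, at chr2:156775214-156775513 (plus strand), Fbxl22, an F-box protein gene, at chr9:66514544-66514843 (minus strand), and Vcl, the attachment protein vinculin, at chr14:20929148-20929447 (plus strand). Capitals mark the strict box where a window holds one, and otherwise the relaxed form, which occurs in Acta2 as CCCTATATGG and CCTTGTTTGG. A match is a description of the letters only.
Acta2: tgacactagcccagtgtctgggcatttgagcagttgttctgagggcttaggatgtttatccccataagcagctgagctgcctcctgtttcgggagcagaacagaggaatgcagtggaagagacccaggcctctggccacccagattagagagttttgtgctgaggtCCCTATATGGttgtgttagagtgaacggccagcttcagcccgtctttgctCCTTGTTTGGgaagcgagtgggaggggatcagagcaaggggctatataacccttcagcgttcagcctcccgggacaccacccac
Myl9: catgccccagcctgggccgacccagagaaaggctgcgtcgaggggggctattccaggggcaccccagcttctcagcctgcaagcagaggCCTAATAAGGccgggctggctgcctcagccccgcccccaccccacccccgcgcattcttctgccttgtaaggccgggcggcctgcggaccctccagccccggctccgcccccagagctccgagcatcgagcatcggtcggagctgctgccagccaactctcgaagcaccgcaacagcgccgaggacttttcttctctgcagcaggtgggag
Fbxl22: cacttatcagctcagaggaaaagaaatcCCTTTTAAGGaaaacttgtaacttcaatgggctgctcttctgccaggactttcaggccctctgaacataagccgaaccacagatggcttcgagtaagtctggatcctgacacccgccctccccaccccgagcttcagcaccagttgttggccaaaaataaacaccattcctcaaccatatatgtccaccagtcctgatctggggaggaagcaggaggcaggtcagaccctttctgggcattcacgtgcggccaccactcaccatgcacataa
Vcl: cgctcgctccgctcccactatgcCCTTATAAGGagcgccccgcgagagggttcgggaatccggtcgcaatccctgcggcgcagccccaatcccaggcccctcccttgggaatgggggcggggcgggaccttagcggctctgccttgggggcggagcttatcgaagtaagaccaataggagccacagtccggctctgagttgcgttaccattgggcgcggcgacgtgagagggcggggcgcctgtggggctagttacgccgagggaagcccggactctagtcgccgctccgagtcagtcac

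The cells bore their label when set against macrophages. Myh11 does not part them from the cells with high Acta2 and pericyte genes, which held it at similar levels and are described at the end. Myh11, the smooth muscle myosin heavy chain, and Actg2, enteric smooth muscle actin, were not used to choose them. Myh11 had a UMI in 99.1% of NC-Foxc2-/- cells and 100% of Control cells, against 3.11% of NC-Foxc2-/- macrophages and 3.45% of Control macrophages, which should lack it. With every cell thinned to 1000 UMIs the shares were 91.7% and 91.5% of smooth muscle cells, against 0% (0 of 161) and 2.59% of macrophages. Actg2 had a UMI in 70.6% of NC-Foxc2-/- and 77.5% of Control cells, and in 0% and 1.72% of macrophages. Thinned, those shares of Actg2 were 31.2% and 35.7% of smooth muscle cells, and 0 of 161 and 0 of 116 macrophages, which allows up to 2.27% and 3.13%. Median depth was 6488 UMIs in NC-Foxc2-/- and 6611 UMIs in Control smooth muscle cells, and 6868 and 7224 UMIs in the macrophages.

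The genes that ranked highest over all other cells of the same library were Actg2 (455.5 CPM in NC-Foxc2-/- smooth muscle cells against 6.18 CPM in the rest of that library, and 516 against 8.50 CPM in Control), Des, Fbxl22, Sh3bgr, Cnn1, Lmod1, Acta2, Tnnt1, Myh11, Ppp1r14a, Tagln, Jph2, Tspan2, Pdlim3 and Hspb6. For these 15 genes the smaller of the ratios in the 2 libraries lay between 30.2 and 60.7. Cnn1 (calponin), Lmod1 (leiomodin) and Tagln (transgelin) bind actin in smooth muscle, Ppp1r14a encodes the myosin phosphatase inhibitor CPI-17, and Jph2 (junctophilin) ties the calcium store to the surface membrane. Of the 18 striated muscle genes listed for the analysis, only 2 reached 50 UMIs, Acta1 and Ckm. The troponin gene Tnnt1, not on that list, had 671 CPM in NC-Foxc2-/- and 954 CPM in Control. Acta1 stood above all other cells by a ratio of 17.9 in NC-Foxc2-/- and 78.4 in Control. Acta1, skeletal actin, had 133 CPM in NC-Foxc2-/- and 123 CPM in Control, Ckm, muscle creatine kinase, had 20.1 CPM and 48.1 CPM, a ratio of 0.418 (0.225 to 0.726), and Myod1, Myog, Pax7, Ttn and Neb had 0 UMIs in both.

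**Figure D1:**
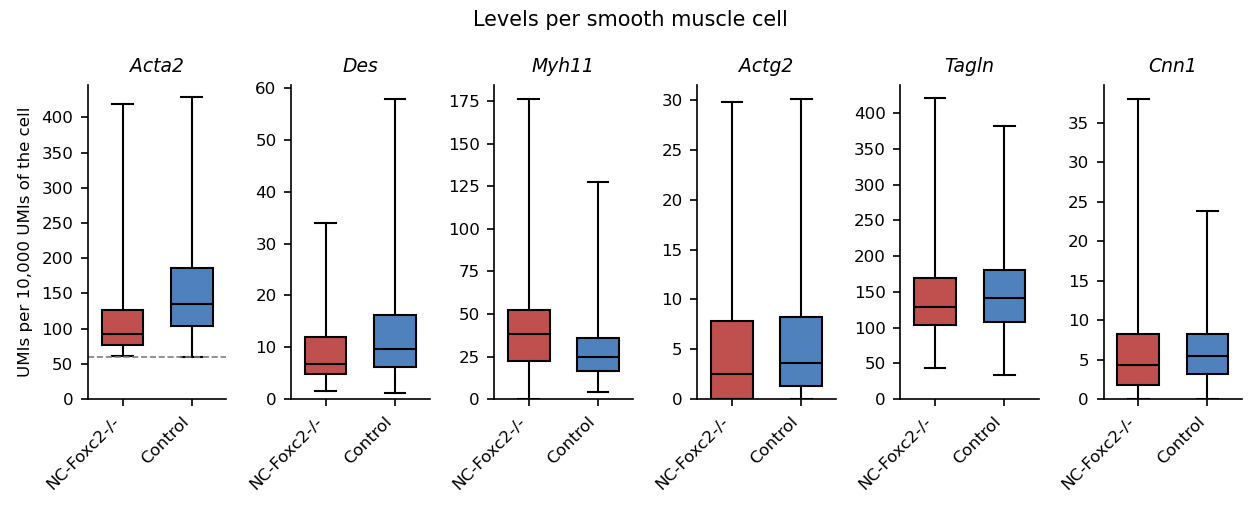
Levels per smooth muscle cell, in UMIs per 10000 UMIs of the cell, of 6 genes in the 109 cells of NC-Foxc2-/- (left, red) and the 258 cells of Control (right, blue). Boxes run from the lower to the upper quartile with the median as a line, whiskers reach the lowest and the highest cell, and the dashed line is the rule's limit of 60 for Acta2. Median Acta2 was 92.8 in NC-Foxc2-/- and 135.6 in Control, whereas median Myh11 was 38.2 and 24.7.

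Several cells sat close to the limits of the rule, above all in NC-Foxc2-/-. Acta2 ranged over 61.4 to 418 UMIs per 10000 in NC-Foxc2-/- cells and over 60.2 to 428 in Control cells. Just inside the limit, from 60 to under 80, lay 34 NC-Foxc2-/- and 23 Control cells, and just outside it, from 40 to under 60 with the rest of the rule met, lay 29 and 16 cells. Des had a median of 4 UMIs in NC-Foxc2-/- and 7 UMIs in Control. Exactly 2 UMIs were held by 19 and 32 cells, exactly 1 by 30 and 40 cells that stayed outside, and 0 by 88 and 110. The pericyte genes summed to 0 in 69 and 172 cells and to 3 in 5 and 15 cells, and 10 and 16 cells were left out at exactly 4. Only 1 and 3 cells were left out for Ptprc or Cdh5 alone.

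Smooth muscle cells made up 1.05% of NC-Foxc2-/- cells (0.861 to 1.26) and 2.49% of Control cells (2.20 to 2.81), a ratio of 0.421 (0.334 to 0.529). Leaving erythroid and epithelial cells out of the total, since Krt12-rich epithelial cells numbered 326 in NC-Foxc2-/- and 1370 in Control, the shares were 1.17% and 3.47%, with a ratio of 0.339. The gap widened with the limit on Acta2: at least 120 per 10000 left 32 NC-Foxc2-/- and 170 Control cells, a ratio of shares of 0.188, and at least 30 per 10000 took in 146 and 286 cells, a ratio of 0.509. Dissection, dissociation and the makeup of each pool cannot be told apart from genotype in these shares. Of the barcodes, 52 occurred in both libraries and none of these was a smooth muscle cell in both.

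Depth was similar in the cells of both libraries. They held 746421 UMIs in NC-Foxc2-/- and 1935304 UMIs in Control, with medians of 2391 and 2526 genes per cell and of 2.44% and 2.58% mitochondrial UMIs. Scrublet, which scores barcodes that may hold more than 1 cell, called 0 NC-Foxc2-/- and 7 Control smooth muscle cells. Summed over all smooth muscle cells, transcripts of both sexes were present: Xist had 167 CPM in NC-Foxc2-/- and 197 CPM in Control, and the Y-linked Ddx3y 71.0 and 92.5 CPM.

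Foxc2, the forkhead gene deleted by the cross, lies on chromosome 8 at 121116171 to 121118895 (mm10, plus strand) and gave few UMIs in NC-Foxc2-/-. There was 1 UMI in 1 of 109 NC-Foxc2-/- cells, and there were 42 UMIs in 32 of 258 Control cells, or 1.34 CPM against 21.7 CPM, a ratio of 0.0617 (0.00153 to 0.363). In all it stood below the 50 UMIs of the rule. The labels and methods do not say how much of the gene the cross removes. Its paralogue Foxc1, also needed in the anterior eye, had 109.9 CPM in NC-Foxc2-/- and 94.6 CPM in Control, a ratio of 1.16 (0.884 to 1.52).

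Over all genes, 6123 had at least 50 UMIs, of which 170 (2.78%) rose and 288 (4.7%) fell, or 7.48% in either direction, with a median log2 ratio of -0.03. Within the contractile apparatus 0 of 14 genes passed the rule in either direction, and the median log2 ratio of the 14 was 0.07. Their ratios were spread around 1. Myh11 had 4205 CPM in NC-Foxc2-/- and 2839 CPM in Control, a ratio of 1.48 (1.42 to 1.55), and Smtn, smoothelin, which is specific to contractile smooth muscle, had 190.2 CPM and 131 CPM, a ratio of 1.45 (1.17 to 1.79). Lower values went with actin and the light chain. Acta2 had 10514 CPM and 14954 CPM (0.703, 0.686 to 0.721), although the rule sets a floor under it, and Myl9 had 5389.7 CPM and 7310.5 CPM (0.737, 0.712 to 0.764). Tagln stood at 14349.8 CPM and 14362 CPM (0.999, 0.977 to 1.02), Cnn1 at 600.2 CPM and 612 CPM (0.980, 0.877 to 1.09), and Actg2 at 456 CPM and 516 CPM (0.883, 0.779 to 1.00). In all other cells Myh11 had 119 CPM in NC-Foxc2-/- and 69.2 CPM in Control, Acta2 294 and 376 CPM, and Myl9 193 and 245 CPM. Those directions were the same as in the smooth muscle cells. Lmod1 went the other way, with 556 and 438 CPM in smooth muscle cells and 10.3 and 11.1 CPM in all others. CPM values of different genes are not compared, since the 3′ counts were not set against transcript length.

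**Figure D2:**
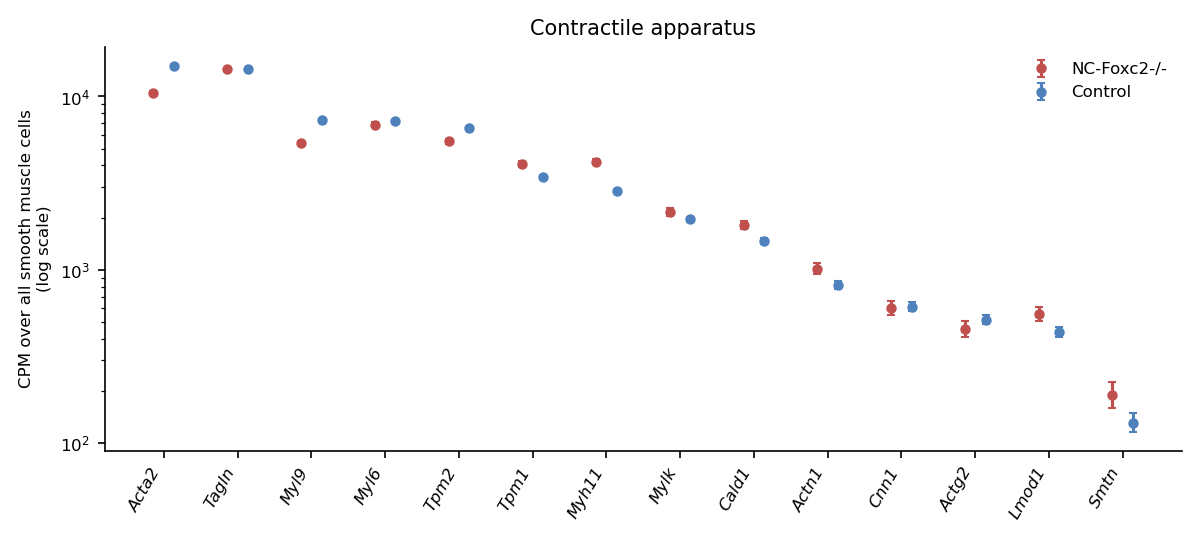
Summed levels of the 14 contractile genes in smooth muscle cells, in CPM on a log axis, with exact Poisson 95% intervals as bars (counting error only), NC-Foxc2-/- left and in red, Control right and in blue. No gene differed by a factor of 2: the ratios ran from 0.703 for Acta2 to 1.48 for Myh11.

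The filaments, dense bodies and attachment proteins behaved likewise, with 0 of 20 past the rule, against 7.48% of all genes, and a median log2 ratio of 0.30. The highest ratios were those of Synpo2, an actin-bundling protein of the Z-disc and dense body, at 193 CPM in NC-Foxc2-/- and 112 CPM in Control (1.73, 1.39 to 2.14), and Ldb3, a Z-disc protein, at 29.5 and 17.1 CPM (1.73, 0.960 to 3.06). The lowest were those of Csrp1, a LIM protein of smooth muscle, at 1708 and 2290.1 CPM (0.746, 0.700 to 0.794), and Des itself at 926 and 1217 CPM (0.761, 0.698 to 0.828). Of the integrin subunits, Itga8 had 446 and 333 CPM (1.34, 1.17 to 1.53) and Itga5, the fibronectin receptor subunit, 114 and 71.3 CPM (1.60, 1.20 to 2.11). In all other cells Synpo2 had 8.92 and 5.47 CPM and Des 17.0 and 21.0 CPM, the same directions. Pdlim3 went the other way, with 247 and 271 CPM in smooth muscle cells and 8.15 and 7.22 CPM in all others.

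In the machinery that sets myosin phosphorylation, 1 of 11 genes fell, against 7.48% of all genes past the rule. This was Dapk3, a kinase that phosphorylates the light chain and the phosphatase, at 26.8 CPM in NC-Foxc2-/- and 55.8 CPM in Control (0.480, 0.282 to 0.779), and it no longer passed within sub-clusters 1 to 3 (0.517, 0.290 to 0.866). Rock2, a kinase that restrains myosin phosphatase, had 423 and 252 CPM (1.68, 1.46 to 1.94), and Ppp1r14a 366 and 229 CPM (1.60, 1.37 to 1.86), neither past the rule. Ppp1r14a was also higher in NC-Foxc2-/- in all other cells, at 10.3 and 6.52 CPM.

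Among calcium handling and channel genes, 2 of 14 rose and none fell, against 2.78% of all genes rising. Cacna1c, the pore of the L-type calcium channel, had 37 UMIs in NC-Foxc2-/- and 35 UMIs in Control, or 49.6 against 18.1 CPM, a ratio of 2.74 (1.68 to 4.48). Pln, phospholamban, which holds back the calcium pump of the store, had 39 and 49 UMIs, or 52.2 against 25.3 CPM (2.06, 1.32 to 3.21). The pump itself, Atp2a2, had 1590.3 and 1110.4 CPM (1.43, 1.33 to 1.54), and Ano1, a calcium-activated chloride channel, 115 and 61.5 CPM (1.87, 1.40 to 2.49). The large-conductance potassium channel, with its pore Kcnma1 at 122 and 141 CPM and its beta subunit Kcnmb1 at 56.3 and 65.1 CPM, had ratios of 0.864 (0.674 to 1.10) and 0.864 (0.594 to 1.23). Both intervals include 1, and they do not show that these genes were alike.

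Receptors of transmitters and hormones were few in UMIs, and only 8 of the 27 listed genes reached 50. Of these, 3 rose and 1 fell, against 2.78% and 4.7% of all genes. Ednra, the endothelin receptor of contracting smooth muscle, rose to 65.6 CPM (49 UMIs) in NC-Foxc2-/-, against 8.78 CPM (17 UMIs) in Control, a ratio of 7.47 (4.23 to 13.8). Gucy1b1, a subunit of the nitric oxide receptor guanylyl cyclase, had 79.0 against 31.5 CPM (2.51, 1.72 to 3.65), and Ptgir, the prostacyclin receptor, 57.6 against 25.3 CPM (2.28, 1.47 to 3.50), both past the rule. Without the 38 cells of sub-cluster 4, 1 of 4 groups into which the cells clustered, 6 receptors had 50 UMIs and none of them rose. Among these Gucy1b1 stood at 1.47 (0.889 to 2.37). Ptgir, at 0.532 (0.184 to 1.27), and Ednra, on 8 and 9 UMIs at 2.92 (0.979 to 8.52), were then under 50 UMIs. The rule could therefore not be applied to either. Ednrb, the other endothelin receptor, had 1 UMI in NC-Foxc2-/- and 58 UMIs in Control (0.0447, 0.00111 to 0.259), but these lay in 4 Control cells, 1 of which held 50% of them. Chrm3, the muscarinic receptor through which parasympathetic nerves drive the ciliary muscle, had 26 UMIs in 18.3% of NC-Foxc2-/- cells and 80 UMIs in 26.0% of Control cells. That is 34.8 against 41.3 CPM, a ratio of 0.843 (0.519 to 1.33), while macrophages held it in 0.621% and 0% of cells. Thinned to 1000 UMIs, Chrm3 was seen in 1.83% and 4.65% of smooth muscle cells and in 0 of 161 and 0 of 116 macrophages.

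The smooth muscle cells fell into 4 sub-clusters, of which sub-clusters 3 and 4 took different shares of the libraries. Sub-cluster 1, whose leading genes (Tyrp1, Mlana, Pmel, Ptgds and Dct) came from few cells, held 45 NC-Foxc2-/- cells (41.3%) and 105 Control cells (40.7%). Sub-cluster 2, led by Fos, Hspa1a, Hspa1b, Amotl2 and Ccn1, held 24 (22.0%) and 76 (29.5%). Sub-cluster 3, led by Chad, Myoc, Chil1, 2610528A11Rik and Csf3, which had a UMI in 4, 6, 7, 2 and 10 of its 79 cells, held 10 (9.17%, 4.49 to 16.2) and 69 (26.7%, 21.4 to 32.6). Sub-cluster 4, led by Apold1, Nrarp, Tcf15, Ebf1 and Esam, held 30 (27.5%, 19.4 to 36.9) and 8 (3.1%, 1.35 to 6.02). The sub-clusters came from these same transcripts, so their leading genes are a description, and with 1 library per condition a sub-cluster mostly of 1 library may be that library and not a type. Its cells were shallower, with medians of 5578 UMIs in NC-Foxc2-/- and 4858 UMIs in Control and of 3.41% and 3.14% mitochondrial UMIs, against medians between 5944 and 7538 UMIs and between 2.12% and 2.75% in the other sub-clusters. The split of 30 and 8 cells returned at a coarser clustering (resolution 0.2), and at a finer one (0.8) the group with most Nrarp held 35 and 8 cells. The Y-linked Ddx3y had a UMI in 1 of the 30 NC-Foxc2-/- cells and 2 of the 8 Control cells of sub-cluster 4. In NC-Foxc2-/- it had a UMI in 22 of 45, 3 of 24 and 3 of 10 cells of sub-clusters 1, 2 and 3. Whether the sex of the pooled mice differed between sub-clusters was not tested.

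**Figure D3:**
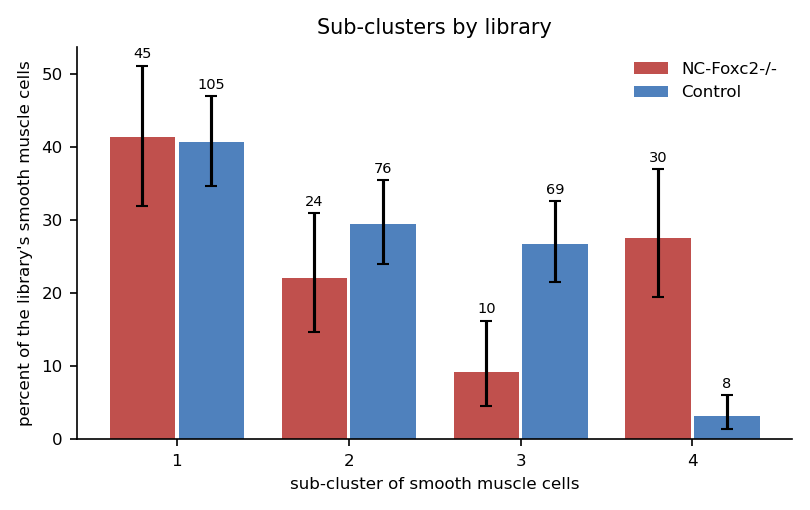
Percent of each library's smooth muscle cells in sub-clusters 1 to 4, NC-Foxc2-/- left and in red, Control right and in blue, with exact binomial 95% intervals (counting error only) and the number of cells above each bar. Sub-cluster 4 held 30 of 109 NC-Foxc2-/- cells and 8 of 258 Control cells, and sub-cluster 3 held 10 and 69.

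Counted over all cells of a library, the 2 groups went opposite ways. Sub-clusters 1 to 3 together made up 0.760% of NC-Foxc2-/- cells (79 cells) and 2.41% of Control cells (250 cells), a ratio of 0.315 (0.241 to 0.407). Sub-cluster 4 made up 0.288% (30 cells) and 0.0772% (8 cells), a ratio of 3.74 (1.67 to 9.44). The cells that shared high Acta2, whatever their Des, but had 4 or more UMIs of the pericyte genes, and so stood outside the rule, made up 0.904% (94 cells) and 1.39% (144 cells), a ratio of 0.651 (0.496 to 0.850).

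The 38 cells of sub-cluster 4 differed from the rest in several genes known from vessel walls, some of them of the Notch pathway. Notch3, the Notch receptor of vascular smooth muscle, had 248 CPM in NC-Foxc2-/- and 166 CPM in Control within sub-cluster 4, and 6.48 CPM over sub-clusters 1 to 3. Nrarp, a Notch target and feedback inhibitor, had 185 UMIs in 29 of 30 NC-Foxc2-/- cells and 11 UMIs in 6 of 8 Control cells, and 4.86 CPM elsewhere. Heyl, a further Notch target, had 80.3 CPM in sub-cluster 4 and 2.83 CPM elsewhere. Hes1, also a Notch target, did not share this pattern, with 142 CPM in sub-cluster 4, 229.6 CPM over sub-clusters 1 to 3 and its highest level, 511 CPM, in sub-cluster 2. Ebf1, a transcription factor of mural cells, had 348 CPM in NC-Foxc2-/- and 712 CPM in Control within sub-cluster 4 and 7.29 CPM elsewhere, and Gja4, connexin 37, had 1509 and 3275 CPM and 92.3 CPM elsewhere.

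Receptors divided along the same line. Ednra had 231 CPM in sub-cluster 4 and 6.88 CPM elsewhere, and Avpr1a, a vasopressin receptor of arterioles, had 32 UMIs in sub-cluster 4 and 1 UMI elsewhere. P2rx1, the ATP-gated channel by which sympathetic nerves contract arterioles, had 66.1 CPM and 2.02 CPM, and Ptgir 231 and 17.4 CPM. Chrm3 ran the other way, with 0 UMIs among the 211756 UMIs of sub-cluster 4, which allows up to 14.2 CPM, and 42.9 CPM elsewhere. Chrm3 lies on chromosome 13 at 9875486 to 10360847 and Notch3 on chromosome 17 at 32120820 to 32166852 (mm10). Chrm3 was present in each of sub-clusters 1 to 3 in both libraries, between 35.6 and 50.6 CPM.

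Several other genes, picked after their values were seen, were low or at 0 in sub-cluster 4. Lmx1b, a LIM homeobox factor required for the anterior eye, had 0 UMIs there and 78.5 CPM elsewhere, and Foxf2 had 1 UMI there and 59.9 CPM elsewhere. Prrx1, a homeobox gene of mesenchyme, followed at 109 and 381 CPM. So did the basement membrane gene Nid1 (9.44 and 538 CPM), the opioid peptide precursor Penk (28.3 and 1562 CPM), the growth factor binding protein Igfbp2 (80.3 and 1101 CPM), the integrin Itga8 (56.7 and 391 CPM) and the neurotrophic factor Gdnf (4.72 and 102 CPM). Foxc1 was not among them, with 236 CPM in sub-cluster 4 (50 UMIs in 24 of 38 cells) and 87.0 CPM elsewhere, and Foxc2 in Control had 4 UMIs in 4 of 8 cells there. Acta1 had 0 UMIs in sub-cluster 4, and within sub-clusters 1 to 3 its 99 NC-Foxc2-/- UMIs lay in 24 of 79 cells and its 239 Control UMIs in 68 of 250 cells. Contractile genes did not sort the same way: Myh11 had 5771 CPM in sub-cluster 4 and 3001 CPM elsewhere, Tagln 12963 and 14478 CPM, Actg2 316 and 515 CPM, and Cnn1 288 and 636 CPM.

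**Figure D4:**
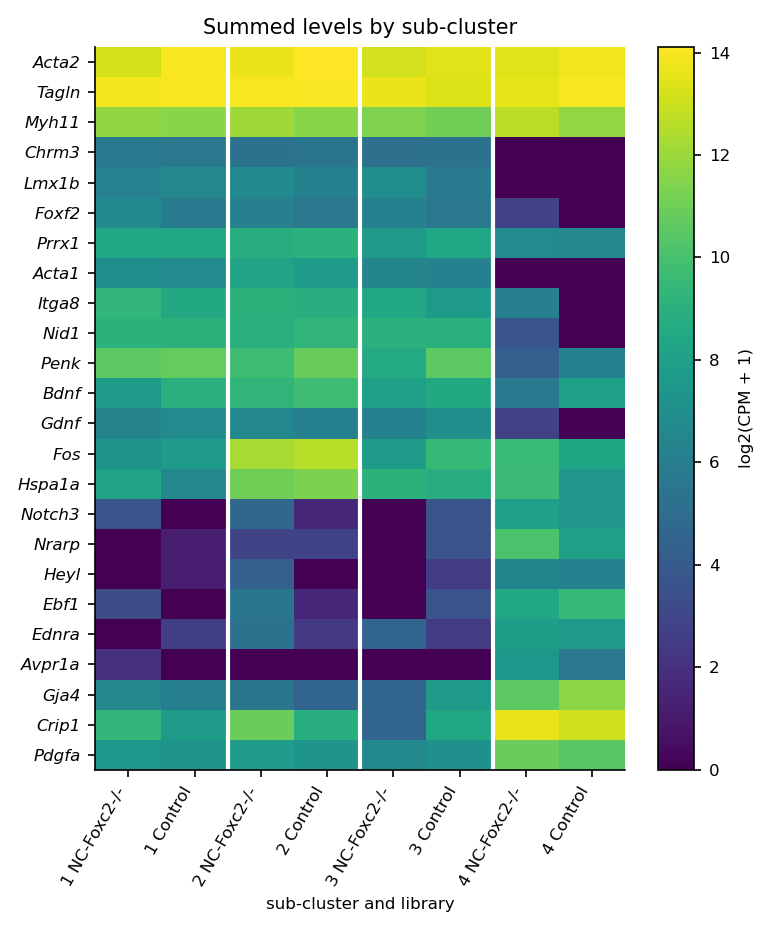
Summed levels of 24 genes as log2(CPM + 1), a colour from dark (0) to yellow (high), in sub-clusters 1 to 4, each with NC-Foxc2-/- left of Control. Chrm3, Lmx1b and Acta1 are at 0 in both libraries of sub-cluster 4, and Notch3, Nrarp, Ebf1 and Gja4 have their highest levels there in both.

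Several genes with the highest ratios over all smooth muscle cells were leading genes of sub-cluster 4. That sub-cluster was formed from these same transcripts and held mostly NC-Foxc2-/- cells. Leaving it out therefore had to lower the ratios of its leading genes, and the values without it are a description. The 10 highest ratios among genes with at least 100 UMIs and 100 CPM were those of Apold1 (36.3, 19.2 to 77.4), Tcf15 (31.1), Nrarp (21.9), S1pr3 (8.79), Adamts4 (8.22), Crip1 (7.09), Crispld2 (6.89), Procr (6.29), Crem (6.11) and Akap12 (4.93). Apold1, for example, had 140 UMIs in NC-Foxc2-/- and 10 UMIs in Control. Without sub-cluster 4 the ratios of S1pr3, a receptor of sphingosine 1-phosphate, Crispld2, Procr, the protein C receptor, Crem and Akap12 were below 1, at 0.656, 0.630, 0.603, 0.676 and 0.709, and that of Nrarp was 0.298 (0.00693 to 2.05), on 1 and 11 UMIs. Ratios above 1 were left for Tcf15 at 7.88 (2.58 to 28.5), on 12 and 5 UMIs, Apold1 at 2.19 (0.183 to 19.1), on 2 and 3 UMIs, and Adamts4 at 1.64 (0.686 to 3.67), on 10 and 20 UMIs, all under the 50 UMIs of the rule. Crip1, a LIM protein, stayed past the rule with 902 CPM in NC-Foxc2-/- and 317 CPM in Control, a ratio of 2.84 (2.52 to 3.20). Its direction was not shared by all 3 sub-clusters. NC-Foxc2-/- and Control had 637 and 204 CPM in sub-cluster 1 and 1941 and 468 CPM in sub-cluster 2. In sub-cluster 3 they had 23.7 CPM (2 UMIs) and 344 CPM (215 UMIs).

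With the cells of sub-clusters 1 to 3 pooled, 79 NC-Foxc2-/- cells stood against 250 Control cells. All values given within sub-clusters 1 to 3 are of this pool, whose mix differed, with 10 and 69 cells from sub-cluster 3. Taken singly, sub-cluster 1 had 87 genes that rose and 124 that fell of 3665 measured. Sub-cluster 2 had 57 and 98 of 2176, and sub-cluster 3 had 79 and 270 of 2457. Of 5900 genes with at least 50 UMIs, 102 (1.73%) rose and 240 (4.07%) fell, or 5.8% in either direction. Of the genes that rose over all cells 59 also rose here, and of those that fell 193 also fell here. The contractile list again had 0 of 14 past the rule, with Acta2 at 10440.3 CPM in NC-Foxc2-/- and 14964 CPM in Control (0.698, 0.678 to 0.717), Myl9 at 5075 and 7234 CPM (0.701, 0.674 to 0.730) and Myh11 at 3590.5 and 2821 CPM (1.27, 1.21 to 1.34). Lmod1, which nucleates actin filaments, had 645 and 443 CPM (1.46, 1.29 to 1.65). Among calcium genes 1 of 13 rose, Ano1, with 139 against 62.9 CPM (2.21, 1.64 to 2.95), whereas Cacna1c (1.99, 1.08 to 3.57) and Pln (1.75, 1.02 to 2.93) did not pass. Chrm3 stood at 45.1 and 42.3 CPM (1.07, 0.658 to 1.68).

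Of the 20 marker genes listed for vascular mural cells, 11 were measured in 50 UMIs over all smooth muscle cells, and 6 rose: Notch3 (67.0 CPM in NC-Foxc2-/- against 7.75 CPM in Control, ratio 8.64), Ednra, Mcam (199.6 against 63.6 CPM, ratio 3.14, 2.46 to 4.02), Ndufa4l2 (2.59), Gja4 (2.37) and Rgs4 (2.19). Over all genes 2.78% rose. The list holds Rgs5, Kcnj8 and Abcc9, which the rule kept low in every cell of both libraries, and none of the 6 was among them. Within sub-clusters 1 to 3, Mcam, an adhesion molecule of vessel walls, was the gene that passed among the 8 that still had 50 UMIs (156 against 60.7 CPM, ratio 2.57, 1.93 to 3.41). There 1.73% of all genes rose. Gja4 was then at 0.720 (0.50 to 1.01) and Rgs4 at 1.03 (0.700 to 1.47). The others were under 50 UMIs there: Notch3 had 8 UMIs in each library (3.28, 1.07 to 10.0), Ednra 8 and 9 UMIs (2.92, 0.979 to 8.52), and Ndufa4l2 2 and 15 UMIs (0.438, 0.0486 to 1.88). Mcam had a UMI in 73 of 109 NC-Foxc2-/- and 90 of 258 Control smooth muscle cells, and its ratio in the remaining cells of the libraries was 2.15.

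Of 19 transcription factors measured, Ebf1 (92.4 CPM in NC-Foxc2-/- against 19.6 CPM in Control, ratio 4.71), Zeb2 (72.3 against 34.6 CPM, ratio 2.09) and Tbx3 (60.3 against 28.9 CPM, ratio 2.08) rose over all cells and none fell, while within sub-clusters 1 to 3 none of the 18 with 50 UMIs passed. Over all genes 2.78% rose and 4.7% fell. Within sub-clusters 1 to 3, Zeb2 stood at 1.76 (1.09 to 2.79) and Tbx3 at 1.05 (0.558 to 1.88), and Ebf1, on 10 and 8 UMIs, at 4.10 (1.46 to 12.0). Myocd, the gene of myocardin, had 95.1 and 103 CPM (0.925, 0.695 to 1.22). Within sub-clusters 1 to 3, Lmx1b stood at 90.2 and 75 CPM (1.20, 0.857 to 1.66) and Foxf2 at 88.4 and 51.2 CPM (1.73, 1.20 to 2.45).

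**Figure D5:**
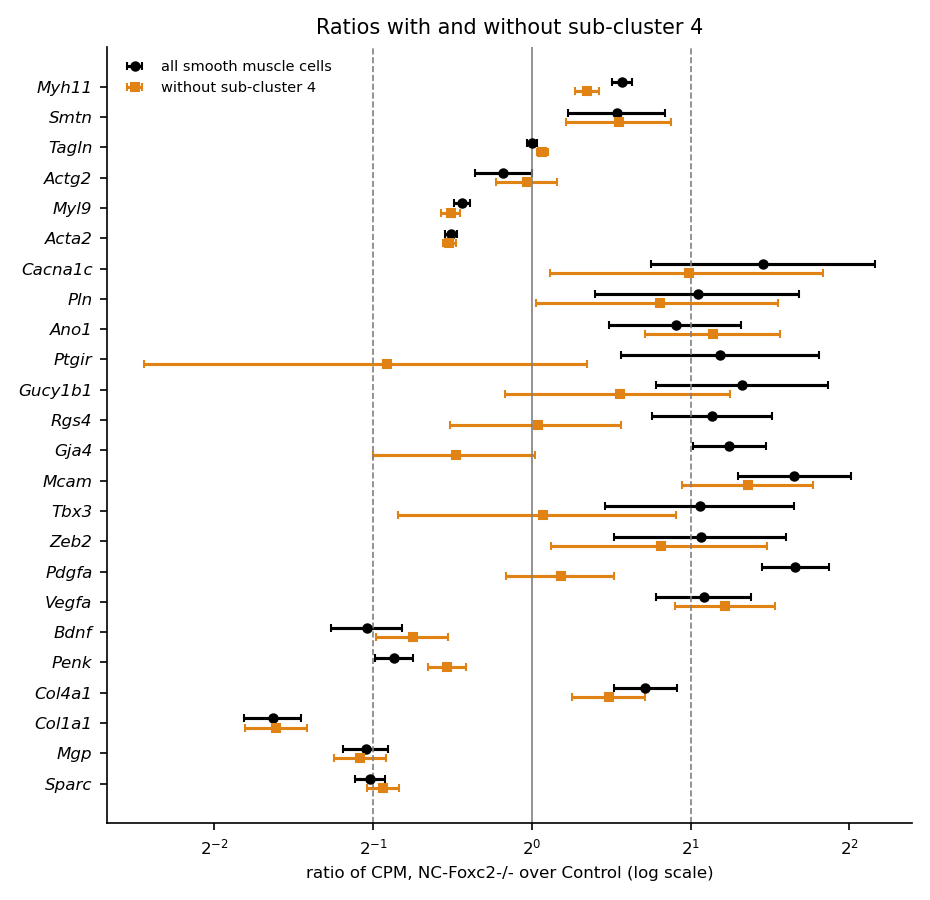
Ratio of summed CPM, NC-Foxc2-/- over Control, on a log axis for 24 genes, over all smooth muscle cells (black circles) and without sub-cluster 4 (orange squares), with exact 95% intervals (counting error only). Dashed lines stand at 0.5 and 2. Gja4, Ptgir and Pdgfa lie past 2 over all cells only, and Mcam and Vegfa in both.

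Of the signals to nerves and vessels, Bdnf and Pdgfa passed the rule over all cells but not in the pool of sub-clusters 1 to 3. Bdnf, a neurotrophin, fell to 263 CPM (196 UMIs in 64 of 109 cells) in NC-Foxc2-/-, against 539 CPM (1044 UMIs in 217 of 258 cells) in Control, a ratio of 0.487 (0.416 to 0.568). Within sub-clusters 1 to 3 the ratio was 0.594 (0.506 to 0.695), which is not past the rule. Taken singly, Bdnf had 214 CPM in NC-Foxc2-/- and 498 CPM in Control in sub-cluster 1. It had 600 and 848 CPM in sub-cluster 2, and 249 and 374 CPM in sub-cluster 3. Vegfa, the main growth factor of blood vessels, rose both over all cells (229 against 108 CPM, ratio 2.12, 1.72 to 2.61) and within sub-clusters 1 to 3 (2.33, 1.87 to 2.90), and its ratio in the rest of the libraries was 2.15. Leaving out the cell with most Vegfa in each library brought the ratio over all cells to 1.93. Pdgfa rose over all cells (561 against 178 CPM, ratio 3.16) and stood at 1.14 (0.895 to 1.43) within sub-clusters 1 to 3. Penk had 903 and 1649 CPM (0.548, 0.503 to 0.595).

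Of 26 secreted signals measured, 3 rose (Pdgfa, Vegfa and Tgfb3, at 2.33) and 4 fell, against 2.78% and 4.7% of all genes. Tgfb3 stood at 1.59 (0.991 to 2.49) within sub-clusters 1 to 3. Igfbp6, an insulin-like growth factor binding protein, fell to 107 CPM (80 UMIs in 31 cells) in NC-Foxc2-/-, against 343 CPM (663 UMIs in 171 cells) in Control, a ratio of 0.313 (0.245 to 0.395), and within sub-clusters 1 to 3 the ratio was 0.397 (0.310 to 0.501). Wnt5a had 10 and 52 UMIs (0.499, 0.226 to 0.992). The others, Npy and the chemokine Ccl2, lay in few Control cells: Npy in 5 cells, 1 of which held 66.4% of its UMIs, and Ccl2 in 18 cells, with 36.7% in 1.

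The matrix list had 35 genes measured, of which 1 rose and 5 fell, against 2.78% and 4.7% of all genes. Lama5, a laminin chain of vessel and muscle basement membranes, rose (134 CPM in NC-Foxc2-/- against 62.0 CPM in Control, ratio 2.16, 1.64 to 2.84), but stood at 1.64 (1.18 to 2.27) within sub-clusters 1 to 3. The basement membrane collagens Col4a1 and Col4a2 had ratios of 1.64 (1.43 to 1.88) and 1.73 (1.49 to 2.00). Mgp, matrix Gla protein, an inhibitor of calcification, fell to 647 CPM in NC-Foxc2-/-, against 1336 CPM in Control (0.484, 0.439 to 0.534), with UMIs in 74 of 109 and 228 of 258 cells. Its ratio was 1.36 in the remaining cells, and the 2 directions were not tested against each other. Sparc, a collagen-binding matrix protein, fell to 1460.3 CPM, against 2954 CPM (0.494, 0.463 to 0.528), and without the highest cell of each library stood at 0.522. Col1a1 (394 against 1220.5 CPM, ratio 0.323) and Col1a2 (510.4 against 1255 CPM, ratio 0.407) fell, but 1 Control cell held 40.9% of the Col1a1 UMIs and 31.3% of the Col1a2 UMIs. Without the 7 Control cells called by Scrublet the ratios were 1.04 for Col1a1, 0.836 for Col1a2, 0.585 for Sparc and 0.520 for Mgp. Fbln1 had 6 and 62 UMIs.

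The strongest falls over all smooth muscle cells were of transcripts with a large part of their UMIs in single Control cells. The 10 lowest ratios were those of Chil1, Pmel, Sfn, Dct, Krt12, Csf3, Mgarp, Ptgds, Aldh3a1 and Ccl2, and 1 Control cell held between 31.6% and 90.4% of the UMIs of each. Without the highest cell of each library their ratios ran from 0.0137 for Chil1 to 0.257 for Aldh3a1. Chil1, Pmel, Dct and Krt12 were on the lists for other cell types. The source of the 10 transcripts was not tested. The 12 pigmented neuroectoderm genes summed to 9 UMIs (12.1 CPM) in NC-Foxc2-/- and 1171 UMIs (605 CPM) in Control. In Control 5 cells held 98.1% of them, 232 of 258 cells had none, and the median cell was at 0. Pax6, which marks neuroectoderm such as the iris sphincter, had 0 UMIs in NC-Foxc2-/- and 2 UMIs in Control. The 8 epithelial genes summed to 26 and 859 UMIs, with 82.5% of the Control UMIs in 5 cells. All 4 pigment genes and all 3 epithelial genes that had 50 UMIs fell, against 4.7% of all genes. The 14 meshwork, keratocyte and fibroblast genes summed to 369 and 3361 UMIs (494 and 1737 CPM), and 7 of the 8 measured fell, while the median cell held 2.02 and 1.77 UMIs per 10000. The 13 genes of blood, endothelium and glia summed to 5898 and 6150 UMIs, of which the 5 highest cells held 98.8% and 95.6%. Of the 5 measured 4 rose, against 2.78% of all genes. The part of these transcripts in the other counts was not tested.

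Of the heat shock and immediate early genes 0 of 26 passed the rule, against 7.48% of all genes, with a median log2 ratio of -0.05. Fos had 1287 CPM in NC-Foxc2-/- and 1833 CPM in Control (0.702, 0.653 to 0.754), and Hspa1a 813 and 821 CPM (0.990, 0.901 to 1.09). They did set sub-cluster 2 apart, in which Fos had 4883 CPM in NC-Foxc2-/- and 6124 CPM in Control. Against 4.7% of all genes, 4 of 15 interferon response genes measured fell, namely Ifit3, Ifit1, Ifi27l2a and Ifitm1. Their UMIs lay in 2 to 6 NC-Foxc2-/- cells and 9 to 27 Control cells, as for Ifit3 with 2 UMIs in NC-Foxc2-/- and 97 UMIs in Control, 33.0% of them in 1 cell. Of 19 glycolysis and hypoxia genes only Vegfa rose and none fell, against 2.78% and 4.7% of all genes. In the proliferation list 0 of 3 measured genes passed, and Mki67, Ccnb1 and Cdk1 had 0 UMIs in NC-Foxc2-/-, which at 3 UMIs of 746421 allows up to 4.02 CPM.

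The cells with high Acta2 and pericyte genes gave values from other cells of the same 2 libraries. There Myh11 had 4518 CPM in NC-Foxc2-/- and 3080.0 CPM in Control, a ratio of 1.47, beside 1.48 in the smooth muscle cells. Acta2 had a ratio of 0.794 beside 0.703, Myl9 0.738 beside 0.737, Mgp 0.394 beside 0.484, and Igfbp6 0.334 beside 0.313. Foxc2 had 5.07 CPM and 50 CPM, a ratio of 0.101. Genes of sub-cluster 4 did not line up in the same way, with Notch3 at 154 and 117 CPM, a ratio of 1.31 beside 8.64, Nrarp at 1.28 beside 21.9, and Gja4 at 0.513 beside 2.37. None of these differences between cell sets could be tested, since each set has 1 library per condition.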

How the data were processed

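Droplet libraries (10x Chromium 3′ chemistry) of dissociated anterior segments, 1 pooled library per condition, had been aligned and counted by the authors with Cell Ranger 4.0.0 on mm10, according to the submitters' processing notes. Which annotation release was used is not stated there. The deposited matrices hold raw counts, that is whole UMIs per gene and barcode, with no normalization. A table of processed values over both libraries was not used, since its columns do not name a sample.

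Of 22941 barcodes, 20768 had at least 1000 UMIs and at most 8% mitochondrial UMIs. The libraries held 94362313 UMIs in NC-Foxc2-/- and 119355777 UMIs in Control. The cells, gene lists and named genes were chosen with earlier results of these data known. Counts were summed over the smooth muscle cells of each library and given as CPM with exact Poisson intervals, ratios with exact conditional binomial intervals, and shares with exact Clopper-Pearson intervals, all at 95% and for counting error only. Without replicates no count model was fitted and no p-value is given. Genes past the 2-fold rule needed 50 UMIs over both libraries. Named genes were the 15 leading genes against the rest, the 10 genes at each end of the ranked ratios (of those with 100 UMIs and 100 CPM or more), the 2 highest and 2 lowest of each list, any contractile, calcium, receptor or transcription factor gene, and the 5 leading genes of each sub-cluster. Other genes named were chosen after their values were seen. A ratio against 0 UMIs was taken as a bound from 3 counts. Of the listed symbols, Zipk was not matched, and Aldoa, a symbol with more than 1 ID, was left out. Sub-clusters came from scanpy 1.11.5 (2000 variable genes, 15 components, 25 neighbours, Leiden resolution 0.4). Scrublet calls were kept in, and left out as an alternative. Shares of cells with a UMI were also computed with each cell thinned to 1000 UMIs. Macrophages had a UMI of Ptprc and at least 4 of C1qa and C1qb, and Krt12-rich epithelial cells at least 50 UMIs of Krt12 per 10000. edgeR 4.0.16 gave TMM factors for 1 alternative. The fold rule was tested on simulated counts, and no result of that is given or used here. Promoter windows came from RefSeq (GRCm38.p6) and gene positions from GENCODE.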

Additional observations from a re-analysis of the deposited data

How the results depend on the processing

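The share of smooth muscle cells, NC-Foxc2-/- over Control, stood at 0.421 and stayed between 0.339 and 0.509 under 7 other settings, but was 0.188 with Acta2 of at least 120 per 10000 and 0.297 with Des of at least 5 UMIs. The count of genes that rose, 170, was 112 and 110 under the same 2 settings, 48 with cells thinned to 1000 UMIs, 363 with a minimum of 20 UMIs per gene, 1827 with no minimum, 656 under a 1.5-fold rule and 102 without sub-cluster 4, an alternative chosen after seeing the data. The count that fell, 288, was 57 when thinned, 707 with 20 UMIs, 2978 with no minimum and 832 under a 1.5-fold rule. It was 240 without sub-cluster 4 and 229 without the cells called by Scrublet, a setting in which 167 rose. Thinning and the minimum change how many genes were tested (1273, 8704 and 14858, against 6123). The cause of the other changes was not tested. Scaling by TMM gave 164 and 302, and scaling to the median gene gave 185 and 265.

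Without sub-cluster 4, which was itself formed from these transcripts, ratios changed side for Akap12 (0.709), Crem (0.676), Crispld2 (0.630), Gja4 (0.720), Procr (0.603), Ptgir (0.532) and S1pr3 (0.656). With the sub-clusters weighted to the mix of Control they did so for Gja4 (0.538), Ndufa4l2 (0.518), Procr (0.976) and Ptgir (0.579). Further changes of side were those of Aldh3a1 (1.02), Col1a1 (1.14) and Rgs4 (0.920) with Acta2 of at least 120, Ccl2 (1.22) with Acta2 of at least 30, Col1a1 (1.04) without Scrublet calls, and Wnt5a (1.10) with Des of at least 5. No paired analysis was possible because each condition has 1 pooled library, and for the same reason no replicate could be left out. Depth limits the receptors and transcription factors, of which 8 of 27 and 19 of 34 listed genes reached 50 UMIs. Leaving out the highest cell of each gene was also chosen after seeing the data and gave 123 and 317.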
